A study of Mus musculus with 12 samples.

Results

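The aminoacyl-tRNA synthetases, the enzymes that load each amino acid onto its transfer RNA, were followed in mouse mammary tumour cells in which Nedd4 had been targeted. Members were taken by gene symbol, as a single-letter amino acid code followed by ars with or without a final 1 or 2, plus Eprs, Ears2, Farsa, Farsb, Fars2 and Pars2 and the scaffold proteins Aimp1, Aimp2 and Eef1e1. This gave 40 of the 56691 genes in each deposited table, 23 cytosolic (the 3 scaffold proteins included) and 17 mitochondrial, and all 40 passed the filter on low counts in both lines. The data are mRNA sequencing libraries of cultured cells of 2 lines derived from BALB/c mouse mammary tumours, 4T1 and EMT6. In both lines KO cells, made with a guide labelled sgNEDD4, stand against control cells of genotype WT, with 3 libraries in each of the 4 groups and 12 libraries in all. All cells grew in DMEM with serum, and all libraries share batch 1. The sources used here give neither the position of the guide, nor its delivery, nor the number of cultures or clones behind the 3 libraries of a group. The p-values therefore measure only the spread between these libraries, which may be technical. Library totals ran from 13705612 to 19761604 counts.

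Each synthetase recognises 1 amino acid and its transfer RNAs, and the charged transfer RNA is what the ribosome uses to read a codon. In mammals the cytosol and the mitochondrion have separate sets of enzymes, mostly encoded by separate genes. Kars and Gars are exceptions, since each gene makes both the cytosolic and the mitochondrial enzyme, and Eprs joins the glutamyl and prolyl enzymes in 1 protein. A group of cytosolic enzymes sits with the scaffold proteins Aimp1, Aimp2 and Eef1e1 in the multi-synthetase complex. When amino acids run short, uncharged transfer RNA activates the kinase GCN2 (Eif2ak4), translation of the transcription factor ATF4 rises, and ATF4 is known to induce several cytosolic synthetase genes along with enzymes and transporters of amino acid supply.

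The labels were checked on Nedd4 itself, a HECT-type ubiquitin ligase. In 4T1 it stood at 24.7, 24.9 and 25.3 FPKM in KO libraries, against 94.4, 97.6 and 93.5 FPKM in control libraries, where FPKM is the read count scaled to exon length and to the library's total count. In EMT6 it stood at 12.1, 11.5 and 12.1 FPKM in KO libraries, against 122.5, 121.4 and 116.5 FPKM in control libraries. No KO library overlapped a control library. Of 8 epithelial markers 6 reached 1 FPKM in 4T1, with sums of 1370 to 1449 FPKM in KO and 1911 to 1994 FPKM in control libraries, and Krt5 was at 0. In EMT6, 2 reached 1 FPKM in KO and 3 in control libraries, with sums of 378 to 392 and 347 to 414 FPKM that were mostly Krt8. Krt5 and Cldn4 were at 0 there and Cdh1, the epithelial cadherin, did not exceed 0.02 FPKM. Of the leukocyte markers, Ptprc did not exceed 0.07 FPKM in 4T1 and was at 0 in EMT6, and Cd3e was at 0 throughout. Cd68 and Cd14 were the 2 of 8 leukocyte markers above 1 FPKM, and the markers summed to 26.2 to 29.2 FPKM in 4T1 KO and 24.0 to 26.6 FPKM in 4T1 control libraries, and to 15.2 to 17.0 FPKM in EMT6 KO and 28.2 to 33.8 FPKM in EMT6 control libraries. Endothelial and fibroblast markers summed to 25.7 to 29.0 FPKM in 4T1 KO and 24.5 to 26.7 FPKM in 4T1 control libraries, and to 195 to 227 FPKM in EMT6 KO and 158 to 180 FPKM in EMT6 control libraries. In EMT6 these sums were mostly Col1a1, with means of 202 FPKM in KO and 165 FPKM in control libraries. What part these markers have in the results was not tested.

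One library has to be kept in view for EMT6. EMT6 control replicate 3 was the highest of the 3 control libraries for 19 of 23 cytosolic members (82.6%), against 37.8% of all tested genes, and its median log2 ratio to the other controls was 0.21 over those members. The same library was highest for 14 of 15 ATF4 targets of amino acid supply, with a median of 0.27. Smaller shifts of the same kind appeared elsewhere. 4T1 KO replicate 3 was highest for 16 of 23 cytosolic members and 14 of 15 ATF4 targets, and 4T1 control replicate 3 for 19 of 23 and 12 of 15. EMT6 KO replicate 3 was lowest for 17 of 23 and 14 of 15. The mitochondrial members did not share the shift to that extent, since EMT6 control replicate 3 was highest for 9 of 17, with a median of 0.06. What sets these libraries apart was not tested. The main EMT6 counts and many EMT6 changes of single members are given with and without control replicate 3. Where no such value is printed, the EMT6 value rests on all libraries. Among the members, the only EMT6 call lost without this library was that of Eprs. For single genes of the related lists, values without it are not given.

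**Figure D1:**
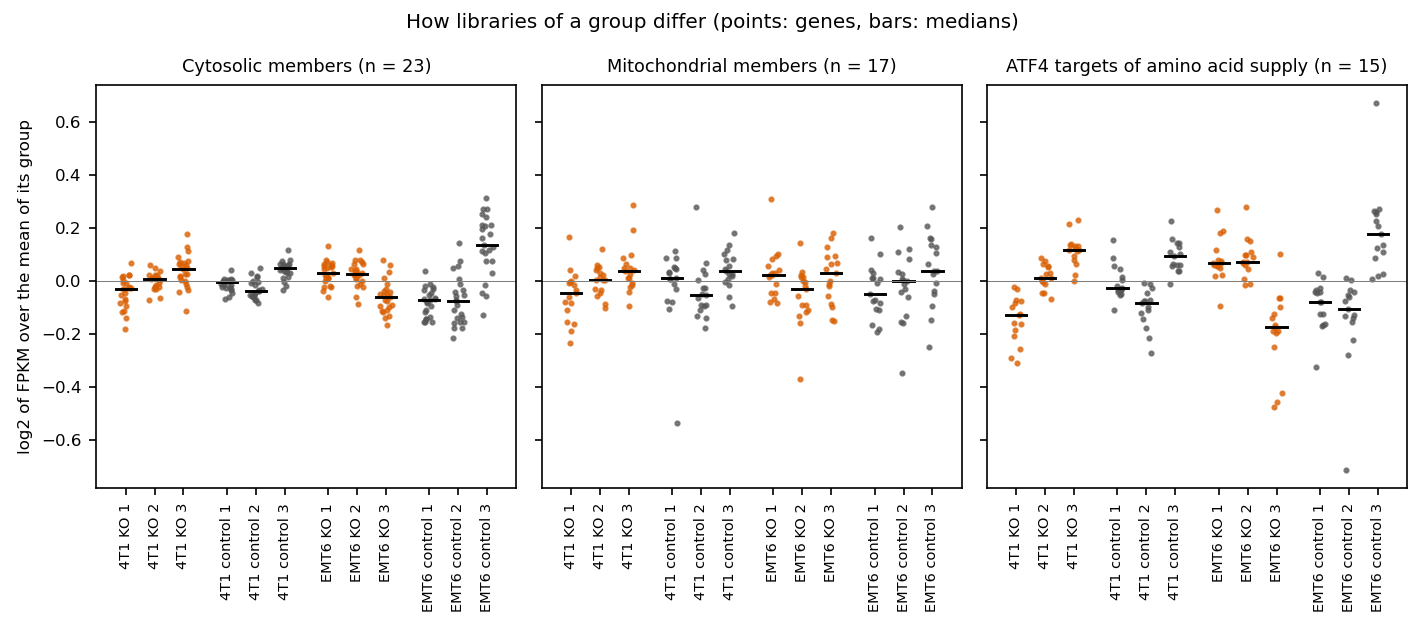
Log2 of the FPKM in each library over the mean of its group (vertical axis), for the 23 cytosolic members, the 17 mitochondrial members and 15 ATF4 targets of amino acid supply (panels), with 1 point per gene, a bar for the median, KO libraries in orange and control libraries in grey. EMT6 control replicate 3 lies above its group for most cytosolic members and ATF4 targets, and EMT6 KO replicate 3 lies below its group.

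In neither line did the synthetases move as a block. In 4T1 KO cells a few cytosolic enzymes rose while others and most scaffold proteins fell. In EMT6 KO cells 12 of 23 cytosolic members fell and 3 rose. A gene is called here where edgeR's quasi-likelihood test gave an adjusted p under 0.05 (Benjamini-Hochberg over all tested genes of the line). In 4T1, 5 of 23 cytosolic members were called higher (21.7%, against 28% of all tested genes) and 9 lower (39.1%, against 29%, with 57% of genes called in either direction), with a median log2 change of -0.06. Of the 17 mitochondrial members 3 were called higher (17.6%) and 5 lower (29.4%), with a median of -0.11. With scaling by total counts only, 61.2% of the called genes of 4T1 were higher in place of 49.1%, and the counts were 7 higher and 9 lower for cytosolic and 3 and 4 for mitochondrial members. The shares of the fitted model in 4T1 lie near the background, and the median of all tested genes was 0.00. In EMT6, 3 of 23 cytosolic members were called higher (13.0%, against 27.9% of all tested genes) and 12 lower (52.2%, against 28.2%, with 56% called in either direction), with a median of -0.22. Without EMT6 control replicate 3 the counts were 3 higher and 11 lower, the median was -0.11, and 26.9% of all tested genes were called lower. The share of cytosolic members called lower in EMT6 thus stood above that of all tested genes and the share called higher below it, which is a description with no test of the list. Of the 17 mitochondrial members in EMT6, 1 was called higher (5.88%) and 3 lower (17.6%), both with and without that library, with a median of 0.00 in each case. Synthetases fall into class I and class II by the fold of their catalytic domain. Of 9 cytosolic class I enzymes 3 were called higher and 2 lower in 4T1, and 2 and 4 in EMT6, and of 10 class II enzymes 2 and 4 in 4T1, and 0 and 6 in EMT6, with Eprs left out because it holds both. In bulk libraries such as these, fewer cells of a kind and less RNA per cell cannot be told apart.

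**Figure D2:**
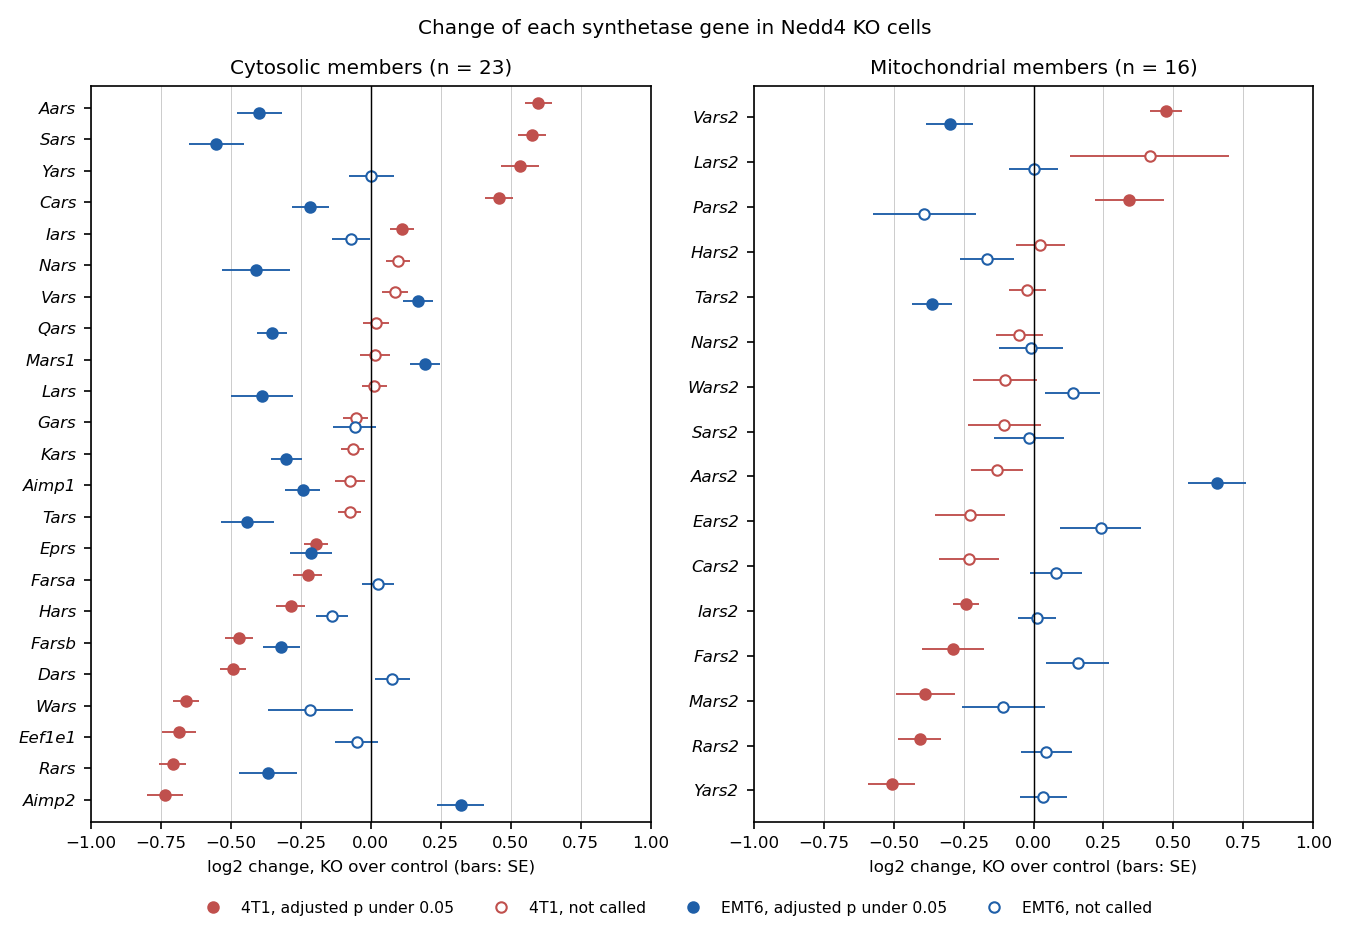
Log2 change of 39 members, KO over control (horizontal axis, bars are standard errors), in 4T1 (red) and EMT6 (blue), with filled points for genes called at an adjusted p under 0.05. Aars, Sars and Cars lie right of 0 in 4T1 and left of 0 in EMT6, Aimp2 the other way round, and most cytosolic members of EMT6 lie left of 0.

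Cytosolic synthetase transcripts were abundant and their mitochondrial counterparts were not. The median of the mean levels of the 23 cytosolic members was 30.2 FPKM in 4T1 KO, 35.8 FPKM in 4T1 control, 56.4 FPKM in EMT6 KO and 62.2 FPKM in EMT6 control libraries. For the 17 mitochondrial enzymes the same medians were 4.10, 4.25, 3.99 and 4.04 FPKM. Vars, the valyl enzyme, stood highest in 4T1, at 121 ± 2.0 FPKM in KO and 108 ± 7.87 FPKM in control libraries (SD, n = 3 each). Kars and Gars came next in 4T1 KO, at 97.2 ± 1.49 and 96.7 ± 5.56 FPKM, and did not differ beyond their spread. In EMT6, Gars stood at 188 ± 12.8 FPKM in KO and 196 ± 22.2 FPKM in control libraries, and Nars, the asparaginyl enzyme, at 165 ± 13.2 and 219 ± 39.0 FPKM. Among mitochondrial enzymes Lars2 was the most abundant in every group, at 27.0 ± 5.22 and 19.2 ± 5.26 FPKM in 4T1 KO and control libraries and at 28.9 ± 2.33 and 28.9 ± 3.92 FPKM in EMT6. Mars2 was the lowest in every group, at 1.15 ± 0.125 and 1.43 ± 0.0929 FPKM in 4T1 and at 0.537 ± 0.0569 and 0.577 ± 0.0351 FPKM in EMT6.

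**Figure D3:**
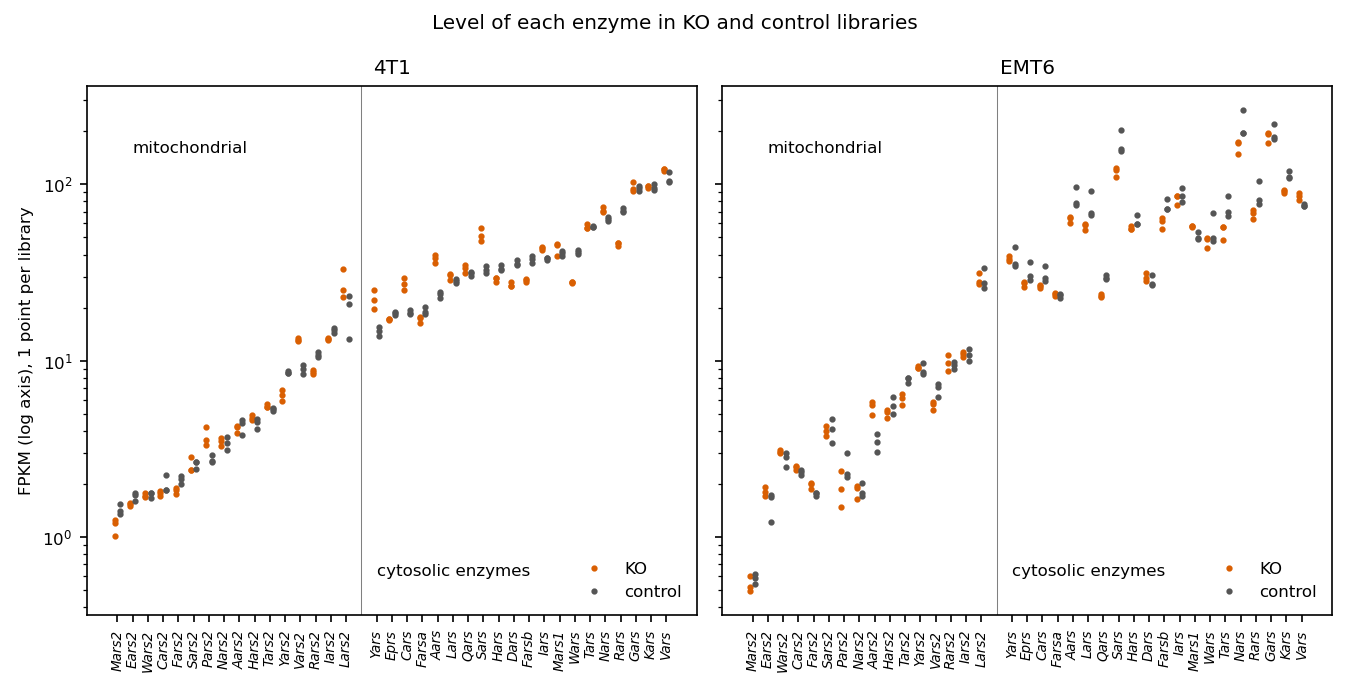
FPKM of 16 mitochondrial and 20 cytosolic enzymes (log vertical axis, 1 point per library), with KO libraries left of control libraries for each gene, in 4T1 and EMT6. Cytosolic enzymes lie mostly above 15 FPKM and mitochondrial enzymes mostly below it, with Lars2 as the exception.

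The cytosolic members were also summed within each library, as parts per 1000000 of all FPKM. The sum was 3377, 3463 and 3556 in 4T1 KO libraries, against 3332, 3287 and 3479 in 4T1 control libraries, and the groups overlapped. In EMT6 it was 5139, 5070 and 4753 in KO libraries, against 5535, 5459 and 6651 in control libraries. Here every KO library lay below every control library, although the smallest p that an exact two-sided permutation test can give with 3 KO and 3 control libraries is 0.1. The mitochondrial sum overlapped between KO and control libraries in EMT6, at 342 to 358 and 351 to 384. In 4T1 it was 375 to 421 in KO libraries and 341 to 372 in control libraries, a sum to which Lars2 contributes most.

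In 4T1, 2 of the 3 scaffold proteins fell. Aimp2, which holds the multi-synthetase complex together, stood at 23.8, 23.3 and 21.01 FPKM in KO libraries, against 35.7, 34.5 and 37.2 FPKM in control libraries. The groups did not overlap, and the fitted log2 change was -0.74 ± 0.06 (SE, edgeR adjusted p = 7.74e-10). In the GENCODE M21 annotation, 29.4% of the exonic bases of Aimp2 (chromosome 5, 143839522 to 143846665 in the tables' coordinates) are shared with Eif2ak1 on the opposite strand, and the sources used here do not say if counting used strand. Eif2ak1, a kinase of the stress response, itself changed by -0.31 ± 0.07 in 4T1. Eef1e1, also known as AIMP3, stood at 11.1, 11.1 and 10.6 FPKM in KO libraries, against 16.7, 16.0 and 17.3 FPKM in control libraries. Its groups did not overlap either, and its log2 change was -0.69 ± 0.06 (edgeR adjusted p = 1.3e-09). Aimp1, the third scaffold protein, stood at 12.8 ± 0.588 FPKM in KO and 12.7 ± 0.596 FPKM in control libraries and was not called (log2 change -0.07 ± 0.05, which turns to 0.01 with scaling by total counts only). The 4T1 FPKM are scaled by library totals, and that scaling places the median of all genes 0.08 higher on the log2 scale than the fit does, so ratios of FPKM in 4T1 sit slightly above the fitted changes.

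Of the 8 enzymes of the complex, 1 was called higher and 3 lower in 4T1, where 28% and 29% of all tested genes were called. Rars, the arginyl enzyme (chromosome 11, 35699208 to 35725333, minus strand), stood at 46.7, 46.5 and 45.0 FPKM in KO libraries, against 70.4, 73.7 and 69.5 FPKM in control libraries. The KO libraries all lay near 46 FPKM and well below the controls, with a log2 change of -0.71 ± 0.05 (edgeR adjusted p = 7.24e-12). Dars, the aspartyl enzyme, fell by 0.49 ± 0.05 and Eprs by 0.20 ± 0.04. Iars, the isoleucyl enzyme, was called higher at 0.11 ± 0.04, and that call was lost on leaving out any 1 of 4T1 KO replicates 1, 2 and 3 and control replicates 1 and 3 (log2 change 0.09 to 0.12, edgeR adjusted p = 0.0501 to 0.112). Kars, Lars, Mars1 and Qars lay between -0.06 and 0.02 and were not called.

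The 12 other cytosolic enzymes of 4T1 split evenly, with 4 called higher and 4 lower, shares near the 28% and 29% of all tested genes. The 4 that rose were the alanyl, seryl, tyrosyl and cysteinyl enzymes. Aars (chromosome 8, 111759776 to 111784296, plus strand) stood at 35.6, 38.3 and 40.0 FPKM in KO libraries, against 22.7, 24.0 and 24.4 FPKM in control libraries. Sars stood at 47.8, 51.0 and 56.6 FPKM in KO libraries, against 32.8, 31.6 and 34.4 FPKM in control libraries. Neither gene had a KO library as low as any control, and the log2 changes were 0.60 ± 0.05 for Aars (edgeR adjusted p = 1.57e-10) and 0.58 ± 0.05 for Sars (edgeR adjusted p = 1.14e-09). Cars, the cysteinyl enzyme, stood at 25.1, 27.1 and 29.4 FPKM in KO libraries, against 18.6, 18.3 and 19.4 FPKM in control libraries. Yars, the tyrosyl enzyme, stood at 19.7, 22.0 and 25.3 FPKM in KO libraries, against 14.6, 13.8 and 15.5 FPKM in control libraries. Both rose without overlap, by 0.46 ± 0.05 (edgeR adjusted p = 4.45e-08) and 0.53 ± 0.07 (edgeR adjusted p = 2.96e-06). In GENCODE M21, 14.3% of the exonic bases of Aars are shared with Exosc6 on the same strand.

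The 4 that fell were Wars, Hars and both subunits of the phenylalanyl enzyme. Wars, the tryptophanyl enzyme, is also known as an interferon-induced gene. It stood at 27.6, 27.9 and 27.8 FPKM in 4T1 KO libraries, against 41.5, 40.5 and 42.5 FPKM in control libraries. The KO libraries lay close together and far below the controls (log2 change -0.66 ± 0.05, edgeR adjusted p = 2.14e-11). Farsa, the catalytic subunit of the phenylalanyl enzyme, stood at 17.5, 16.4 and 17.8 FPKM in KO libraries, against 18.8, 18.4 and 20.1 FPKM in control libraries, a log2 change of -0.23 ± 0.05 (edgeR adjusted p = 0.000801). Farsb, its partner subunit, stood at 29.0, 28.1 and 28.6 FPKM in KO libraries, against 37.7, 35.7 and 39.2 FPKM in control libraries, a log2 change of -0.47 ± 0.05 (edgeR adjusted p = 2.72e-08). Both subunits were lower in all KO libraries, with Farsb showing the larger decrease, and Sgpp2 on the opposite strand shares 9.47% of the exonic bases of Farsb. Hars, the histidyl enzyme, fell by 0.29 ± 0.05. Gars, Nars, Tars and Vars lay between -0.07 and 0.10 and were not called, and Tars moved to 0.01 with scaling by total counts only. Nars (edgeR adjusted p = 0.0566) was called under 5 of 13 alternatives and Vars (edgeR adjusted p = 0.113) under 3. Among the 40 members, 3 were called higher with a log2 change of at least 0.5 (Aars, Sars and Yars) and 5 lower (Aimp2, Rars, Eef1e1, Wars and Yars2), against 12.9% and 8.77% of all tested genes. All 3 KO libraries exceeded all 3 control libraries for 11 members and lay below them for 16, against 37.3% and 24.3% of all tested genes (61.6% without overlap in either direction).

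**Figure D4:**
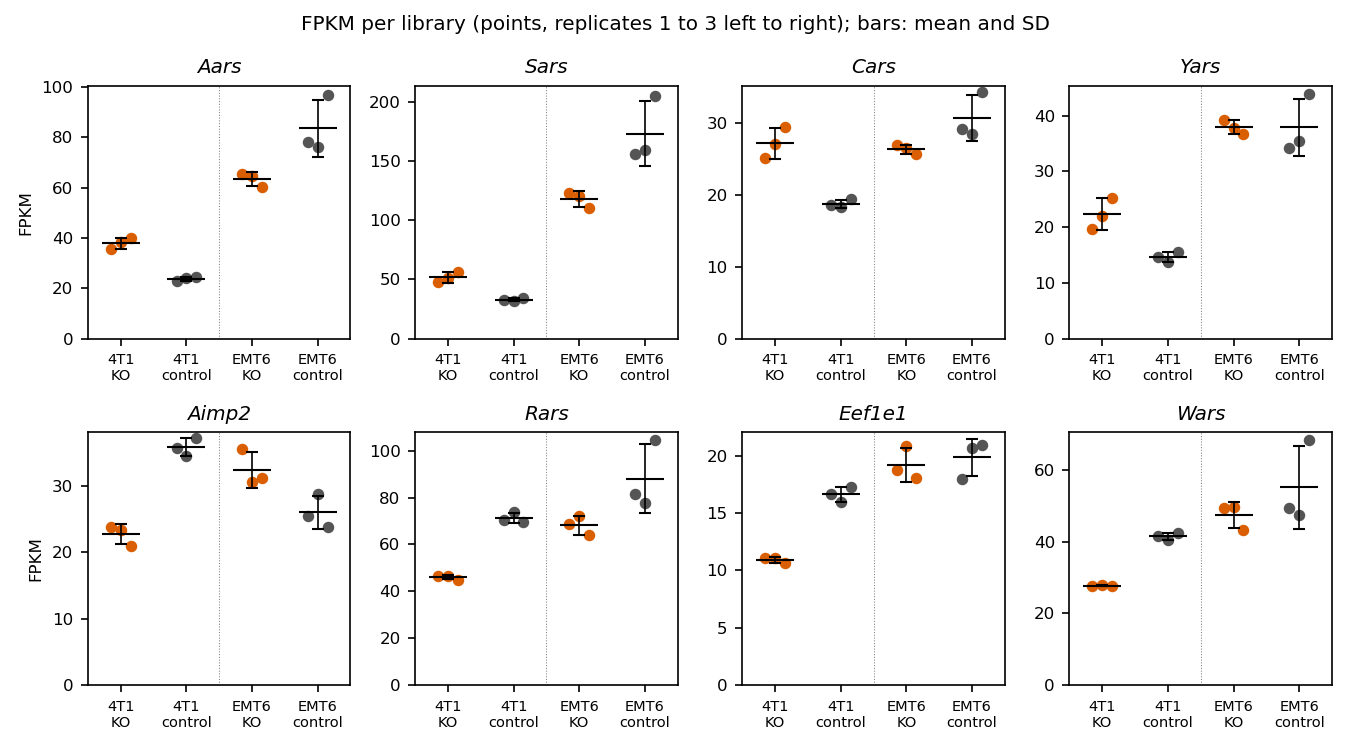
FPKM of 8 cytosolic members in each library (points, replicates 1 to 3 from left to right), with the mean and SD of each group, KO left of control in each line. In 4T1 the KO libraries lie above control for Aars, Sars, Cars and Yars and below control for Aimp2, Rars, Eef1e1 and Wars, and in EMT6 control replicate 3 is the highest point of its control group for all of them except Aimp2.

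Start-site windows were read for the core of the C/EBP-ATF response element, the element through which ATF4 is known to act on several of these genes. Windows of 250 bases before to 50 after each start were taken from RefSeq (GRCm38.p6) and matched 30 of the 40 members. The core, TGATGNAA on either strand, was found in 5 of the 30, all cytosolic (5 of 16 cytosolic and 0 of 14 mitochondrial windows), against 4.51% of 27025 genes. The 5 genes are Aars, Gars, Iars, Tars and Yars. Aars and Yars rose in 4T1, while Gars and Tars were not called there and Iars was called higher by 0.11. Sars, which rose by 0.58, has a window without the core, and Cars, which also rose, has no window in the table. One match for each gene is shown with 11 bases on each side, 5′ to 3′ on the strand of the gene, with the core in capitals (TTGCATCA and TTTCATCA are the core read on the other strand).
Aars, base 10 after the start: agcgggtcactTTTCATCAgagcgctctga
Gars, 30 bases before the start: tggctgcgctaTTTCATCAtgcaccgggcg
Iars, base 8 after the start: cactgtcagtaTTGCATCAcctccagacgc
Tars, 15 bases before the start: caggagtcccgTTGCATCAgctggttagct
Yars, base 4 after the start: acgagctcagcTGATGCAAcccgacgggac
In GRCm38.p6 they lie at chr8:111033840-111033869 for Aars, chr6:55037960-55037989 for Gars, chr13:49682126-49682155 for Iars, chr15:11399655-11399684 (minus strand) for Tars and chr4:129189895-129189924 for Yars, the others on the plus strand. The deposited tables use other coordinates, so these positions cannot be set beside theirs. The E-box CACGTG was found in 5 of 30 members (Aars, Ears2, Farsb, Iars and Tars, none of its matches overlapping a core), against 8.09% of genes, and the interferon-stimulated response element in 1 (Qars), against 3.99%. A match describes these letters and not a bound site.

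In EMT6 KO cells, Sars, Tars, Nars and Aars showed the largest decreases among cytosolic members when all libraries were used. Without control replicate 3 the largest were those of Sars (-0.42), Qars (-0.37), Kars (-0.33) and Tars (-0.33). Sars stood at 123.4, 120.3 and 110.2 FPKM in KO libraries, against 156, 159 and 205 FPKM in control libraries. Every KO library lay below every control library, and the log2 change was -0.55 ± 0.10 (edgeR adjusted p = 0.000701), or -0.42 ± 0.06 without control replicate 3. Tars, the threonyl enzyme, stood at 57.2, 57.6 and 48.6 FPKM in KO libraries, against 70.2, 66.6 and 85.4 FPKM in control libraries. Its log2 change was -0.44 ± 0.10 (edgeR adjusted p = 0.00272), or -0.33 ± 0.07 without control replicate 3, again with no overlap. Nars stood at 172, 173 and 149.6 FPKM in KO libraries, against 196.9, 196.9 and 264 FPKM in control libraries. Its change of -0.41 ± 0.12 (edgeR adjusted p = 0.0207) became -0.26 ± 0.06 (edgeR adjusted p = 0.000999) without control replicate 3, so the estimate shrank and its error with it. Aars stood at 65.5, 64.5 and 60.4 FPKM in KO libraries, against 78.4, 76.1 and 96.8 FPKM in control libraries (log2 change -0.40 ± 0.08, edgeR adjusted p = 0.000834, and -0.29 ± 0.06 without control replicate 3). For Nars and Aars, too, every KO library lay below every control library.

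Of the 8 enzymes of the multi-synthetase complex, 5 were called lower and 1 higher in EMT6, where 28.2% and 27.9% of all tested genes were called. Kars and Qars, the lysyl and glutaminyl enzymes, fell by 0.30 ± 0.06 and 0.35 ± 0.05, and without control replicate 3 by 0.33 ± 0.06 and 0.37 ± 0.05. Lars, the leucyl enzyme, fell by 0.39 ± 0.11, or by 0.24 ± 0.05 without that library. Rars stood at 68.7, 72.0 and 63.8 FPKM in KO libraries, against 81.5, 77.8 and 105 FPKM in control libraries. Its groups did not overlap and its change of -0.37 ± 0.10 (edgeR adjusted p = 0.0145) became -0.23 ± 0.06 without control replicate 3. Eprs was called at -0.21 ± 0.07 (edgeR adjusted p = 0.0253), and that call was lost without control replicate 3 (-0.11, edgeR adjusted p = 0.0911), KO replicate 1 (-0.22, edgeR adjusted p = 0.0529) or KO replicate 3 (-0.18, edgeR adjusted p = 0.107). Mars1, the methionyl enzyme, was the member of the complex that rose, by 0.19 ± 0.05. Dars and Iars stood at 0.08 ± 0.06 and -0.07 ± 0.07 and were not called.

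The scaffold proteins of EMT6 went in different directions. Aimp2 stood at 35.5, 30.5 and 31.3 FPKM in KO libraries, against 25.5, 28.7 and 23.8 FPKM in control libraries. It rose without overlap of the groups, by 0.32 ± 0.09 (edgeR adjusted p = 0.0044), or by 0.25 ± 0.08 without control replicate 3. Eif2ak1, which shares exonic bases with Aimp2, stood at 0.05 ± 0.08 in EMT6 and was not called. Aimp1 stood at 17.7, 18.7 and 17.3 FPKM in KO libraries, against 20.04, 20.6 and 23.0 FPKM in control libraries, and fell by 0.24 ± 0.06 (edgeR adjusted p = 0.00368), or by 0.19 ± 0.06 without control replicate 3. Eef1e1 stood at 18.7, 20.8 and 18.02 FPKM in KO libraries, against 18, 20.7 and 20.9 FPKM in control libraries. Its groups overlapped and it was not called (-0.05 ± 0.08).

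Among the remaining cytosolic enzymes of EMT6, Farsb and Cars were called lower and Vars higher. Farsb stood at 64.1, 61.8 and 56.2 FPKM in KO libraries, against 72.4, 72.3 and 83.0 FPKM in control libraries, a log2 change of -0.32 ± 0.07 (edgeR adjusted p = 0.00067) that was -0.26 ± 0.06 without control replicate 3. Its partner Farsa stood at 24.1, 23.9 and 23.2 FPKM in KO libraries, against 24.0, 23.4 and 22.7 FPKM in control libraries, and was not called (0.03 ± 0.06). The subunits of the phenylalanyl enzyme thus had separate calls in EMT6. Cars stood at 27.0, 26.5 and 25.7 FPKM in KO libraries, against 29.3, 28.5 and 34.4 FPKM in control libraries. It was called at -0.22 ± 0.07 (edgeR adjusted p = 0.0108), was -0.13 without control replicate 3 (edgeR adjusted p = 0.0389) and lost the call without KO replicate 3 (-0.19, edgeR adjusted p = 0.0533). Vars rose by 0.17 ± 0.05, a call lost without KO replicate 1 (0.17, edgeR adjusted p = 0.0578) or KO replicate 3 (0.15, edgeR adjusted p = 0.0635). Wars stood at 49.3, 49.6 and 43.3 FPKM in KO libraries, against 49.5, 47.5 and 68.4 FPKM in control libraries. Its groups overlapped, its change of -0.22 ± 0.15 was not called, and without control replicate 3 it was -0.04 ± 0.06. Gars and Yars stood at -0.06 ± 0.08 and 0.00 ± 0.08 and were not called. Hars stood at -0.14 ± 0.06 and was not called (edgeR adjusted p = 0.0512), with all its KO libraries below all control libraries. Under 5 of 13 alternatives Hars was called, among them leaving out control replicate 1 or control replicate 2. With a log2 change of at least 0.5, 1 of the 40 members was called higher in EMT6 (Aars2) and 2 lower, Sars among them, against 12.7% and 13.2% of all tested genes. All KO libraries lay above all control libraries for 6 members and below them for 16, against 31.2% and 31.1% of all tested genes (62.3% in either direction).

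Of the mitochondrial enzymes, 9 of 17 were not called in 4T1 and 13 of 17 in EMT6, where 57% and 56% of all tested genes were called, so the 4T1 count lies near the background. Vars2, the mitochondrial valyl enzyme, stood at 13.0, 12.9 and 13.5 FPKM in 4T1 KO libraries, against 8.99, 8.38 and 9.47 FPKM in 4T1 control libraries. In EMT6 it stood at 5.65, 5.23 and 5.83 FPKM in KO libraries, against 7.37, 7.04 and 6.2 FPKM in control libraries. The groups overlapped in neither line, and Vars2 rose by 0.47 ± 0.06 in 4T1 (edgeR adjusted p = 1.33e-07) and fell by 0.30 ± 0.08 in EMT6 (edgeR adjusted p = 0.00606, and by 0.38 ± 0.08 without control replicate 3). Gm20483, annotated as antisense, shares 8.52% of the exonic bases of Vars2.

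Aars2, the mitochondrial alanyl enzyme, stood at 3.87, 4.25 and 4.18 FPKM in 4T1 KO libraries, against 4.6, 3.76 and 4.39 FPKM in control libraries, and was not called. In EMT6 Aars2 stood at 5.82, 5.56 and 4.91 FPKM in KO libraries, against 3.04, 3.44 and 3.85 FPKM in control libraries. This was the largest increase of any member in EMT6 (0.66 ± 0.10, edgeR adjusted p = 5.13e-05, and 0.74 ± 0.11 without control replicate 3).

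Of the other mitochondrial enzymes, Yars2, Rars2, Mars2 and Iars2 fell in 4T1, by 0.51 ± 0.08, 0.41 ± 0.08, 0.39 ± 0.11 and 0.24 ± 0.05. In EMT6 these 4 lay between -0.11 and 0.05 and were not called. Rab3gap2 shares 22.9% of the exonic bases of Iars2. Fars2 was called at -0.29 ± 0.11 in 4T1 and lost the call without KO replicate 1 (-0.27, edgeR adjusted p = 0.0786), KO replicate 3 (-0.29, edgeR adjusted p = 0.0599) or control replicate 2 (-0.24, edgeR adjusted p = 0.116), with total counts only (-0.21, edgeR adjusted p = 0.123) and with DESeq2 (-0.28, adjusted p = 0.0753). Pars2, the mitochondrial prolyl enzyme, was called at 0.34 ± 0.12 in 4T1 and lost the call without KO replicate 3 (0.24, edgeR adjusted p = 0.149) or control replicate 3 (0.30, edgeR adjusted p = 0.0693). It was also lost when genes of low count were kept in (0.31, edgeR adjusted p = 0.0553). Without KO replicate 3 the mitochondrial members called higher in 4T1 numbered 1 in place of 3. Tars2 fell in EMT6 by 0.36 ± 0.07. Lars2 stood at 23.0, 25.2 and 32.9 FPKM in 4T1 KO libraries, against 13.2, 23.2 and 21.1 FPKM in control libraries, and its wide and overlapping groups gave no call with edgeR (0.41 ± 0.28), while limma-voom called it (adjusted p = 0.014). Cars2, Ears2, Hars2, Nars2, Sars2 and Wars2 were called in neither line. Their lowest counts in a library ran from 110 (Sars2) to 261 (Hars2), and the standard errors of their log2 changes from 0.08 to 0.14, and these set the size of change that could be told from 0.

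Pairs of cytosolic and mitochondrial enzymes for the same amino acid included both opposite and shared directions. Over 17 such pairs, the FPKM of the cytosolic gene exceeded that of the mitochondrial gene in every group, with a median ratio of 9.25 in 4T1 KO, 9.05 in 4T1 control, 11.7 in EMT6 KO and 12.8 in EMT6 control libraries. In 4T1, 4 pairs were called in opposite directions (among them Pars2 higher and Eprs lower, Iars2 lower and Iars higher, Yars2 lower and Yars higher) and 2 pairs fell together (Fars2 and Farsa, Rars2 and Rars). In EMT6, 2 pairs were called in opposite directions (Aars2 higher and Aars lower, Vars2 lower and Vars higher) and 1 pair fell together (Tars2 and Tars). Of all tested genes, 57% were called in 4T1 and 56% in EMT6. The calls of Iars, Pars2 and Fars2 in 4T1 and of Vars in EMT6 were lost on leaving out certain single libraries. So was a call in the 4T1 pair not named here. Eprs stands in the pairs of both Pars2 and Ears2. The ratio of Yars to Yars2 was 3.51 in 4T1 KO and 1.70 in 4T1 control libraries. The ratio of Aars to Aars2 was 11.7 in EMT6 KO and 24.3 in EMT6 control libraries. These ratios are descriptions of group means and were not tested.

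The KO effect differed between the lines for 26 of the 40 members (65%, against 59.9% of the 12006 genes tested in both lines), by edgeR's test of the interaction in a model of the 12 libraries together. For the cytosolic members the EMT6 change lay above the 4T1 change in 6 and below it in 10 of 23, and for the mitochondrial members in 6 and 4 of 17, against 29.7% and 30.2% of all genes. Without EMT6 control replicate 3 the cytosolic counts were 9 above and 9 below. Members called in both lines with opposite signs numbered 6, against 19.6% of all genes. They include Aars, Cars, Sars and Vars2, lower in EMT6 KO and higher in 4T1 KO (9.42% of all genes), and Aimp2, higher in EMT6 KO and lower in 4T1 KO (10.2%). Eprs, Rars and Farsb were lower in both (7.85% of all genes), and 0 members were higher in both (7.05%). No member reached 0.5 on the log2 scale in the same direction in both lines.

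Sars, Aars and Aimp2 had the largest differences. The EMT6 change minus the 4T1 change was -1.15 ± 0.13 for Sars (edgeR adjusted p = 4.06e-06), -1.02 ± 0.10 for Aars (edgeR adjusted p = 9.64e-08) and 1.04 ± 0.11 for Aimp2 (edgeR adjusted p = 3.02e-08), and without EMT6 control replicate 3 these were -1.01, -0.90 and 0.97. Vars2 and Cars differed by -0.79 ± 0.10 and -0.70 ± 0.09. Aars2 and Eef1e1 differed by 0.77 ± 0.14 and 0.62 ± 0.10. For Wars the difference of 0.42 ± 0.16 (edgeR adjusted p = 0.0421) was lost on leaving out any library except EMT6 KO replicate 3 and EMT6 control replicate 3 (0.34 to 0.43, edgeR adjusted p = 0.0608 to 0.0806), and was 0.61 ± 0.08 without EMT6 control replicate 3. For Rars the difference of 0.32 ± 0.12 (edgeR adjusted p = 0.037) was 0.47 ± 0.07 without EMT6 control replicate 3, and was lost on leaving out any library except that one, EMT6 KO replicate 3 and 4T1 control replicate 3 (0.25 to 0.34, edgeR adjusted p = 0.0508 to 0.0907). Across the 40 members the changes of the 2 lines had a Pearson r of -0.34 and a Spearman rho of -0.40, against -0.07 and -0.11 across all 12006 genes, which is a description across genes that are not independent of each other. The signs were the same for 18 of 40 members and for 5452 of all 12006 genes, which is nearly the same share.

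**Figure D5:**
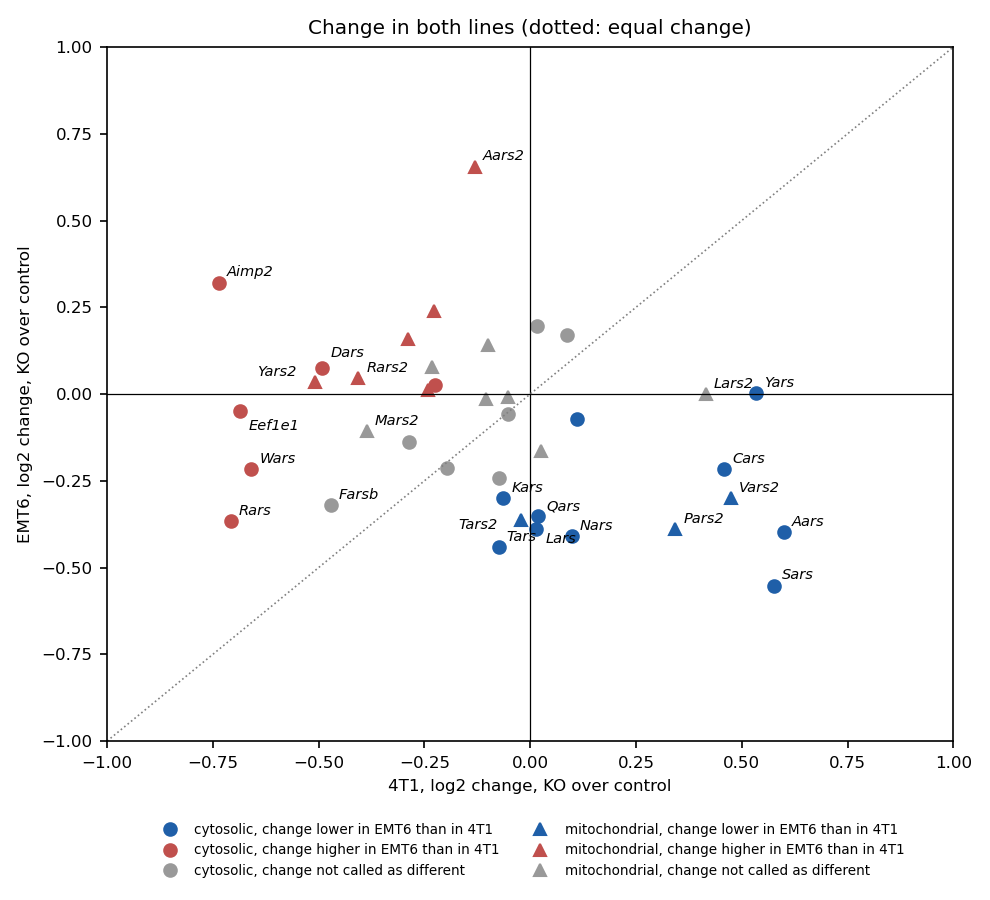
Log2 change of 39 members in 4T1 (horizontal axis) and EMT6 (vertical axis), KO over control, with circles for cytosolic and triangles for mitochondrial members, coloured by whether the change was called as different between the lines, and a dotted line for equal change. Sars, Aars, Cars, Vars2 and Pars2 lie to the lower right, and Aimp2 and Aars2 to the upper left.

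Genes known to respond to ATF4 alongside the synthetases moved in the same comparisons. Of 15 ATF4 targets of amino acid supply, 12 were called higher and 0 lower in 4T1 (median log2 change 0.59), and 0 higher and 10 lower in EMT6 (median -0.27), where all tested genes gave 28% and 29% in 4T1 and 27.9% and 28.2% in EMT6. Without EMT6 control replicate 3, 7 were lower in EMT6 (median -0.19), and on leaving out each library in turn the count called higher in 4T1 was 11 to 12 and that called lower reached 1 without 4T1 control replicate 2. Chac1, which degrades glutathione, stood at 56.9 ± 10.5 FPKM in 4T1 KO and 9.09 ± 0.999 FPKM in control libraries (log2 change 2.57 ± 0.16), and at 46.2 ± 11.4 and 87.1 ± 2.23 FPKM in EMT6 (-0.91 ± 0.19). Gpt2, a mitochondrial alanine transaminase, changed by 1.58 ± 0.12 and -1.21 ± 0.16, and Sesn2, a leucine sensor that restrains mTORC1, by 1.28 ± 0.12 and -0.84 ± 0.16. In EMT6 the largest decreases of the list included Cth, the enzyme that makes cysteine, at -2.94 ± 0.50 with control libraries at 5.53, 4.23 and 11.03 FPKM, and Ddit4, an inhibitor of mTORC1, at -0.97 ± 0.06. Of 13 tested amino acid transporters in 4T1, 7 were called higher and 3 lower, and of 11 in EMT6, 0 higher and 7 lower, beside the same shares of all tested genes. Slc7a11, the cystine importer, changed by 1.5 ± 0.12 in 4T1 and by -1.82 ± 0.09 in EMT6. Slc3a2, the shared heavy chain of several transporters, fell by 0.77 ± 0.08 in EMT6.

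Sensors of uncharged transfer RNA and controllers of the stress response gave mixed counts, 7 higher and 3 lower of 15 in 4T1, and 5 higher and 6 lower in EMT6 (5 and 4 without control replicate 3). The EMT6 count called lower was 3 without any 1 of KO replicates 1, 2 and 3 and control replicate 1, and that called higher was 3 without KO replicate 1. In all, 57% of tested genes were called in 4T1 and 56% in EMT6, so the counts of this list are near or modestly above the background. Atf4 itself stood at 116 ± 1.5 FPKM in 4T1 KO and 100 ± 5.19 FPKM in control libraries (log2 change 0.13 ± 0.04), and at 346 ± 42.4 and 483 ± 15.6 FPKM in EMT6 (-0.48 ± 0.08). Atf4 was chosen after its values were seen, and its protein is controlled mainly in translation, which these data do not measure. Ddit3 (CHOP) stood at 1.30 ± 0.16 in 4T1 and -1.44 ± 0.28 in EMT6, and Trib3, a pseudokinase that feeds back on ATF4, at 1.37 ± 0.21 and -0.98 ± 0.29. Eif2ak4 (GCN2), also chosen after its values were seen, was called higher in EMT6 (0.52 ± 0.06) and not called in 4T1 (0.09 ± 0.07). In 4T1 the ATF4 targets had the direction of Aars, Sars, Cars and Yars. The 9 cytosolic members called lower there, Rars, Wars, Eef1e1, Farsb and Aimp2 among them, went the other way. In EMT6 the targets had the direction of Aars, Sars, Cars and the other cytosolic members that fell, while Aimp2, Mars1 and Vars rose. Of the genes whose windows hold the core of the response element, Aars and Tars were called lower in EMT6, and Gars, Iars and Yars were not called. Whether the changes of the synthetases depend on ATF4 was not tested.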

How the data were processed

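Gene-level tables of 12 libraries were used, 1 table per line, with read counts and FPKM side by side. Per the submitters' processing notes the tools were cutadapt 1.9.1, HISAT2 2.2.1, HTSeq 0.6.1 and DESeq2, with build GRCm38. The sources used here give no annotation, no strand setting and no role for each tool. The deposited counts are whole numbers per gene. The FPKM are the authors' values, per the file headers, and were checked to equal the count over exonic size and library total. Coordinates are printed as in the tables, without a build, since 2.83% of 52073 genes shared with GENCODE M21 (GRCm38) have its start and end.

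From the counts, edgeR 4.0.16 in R 4.3.3 was fitted per line (filterByExpr, TMM scaling, robust quasi-likelihood test, KO over control), on 13313 genes in 4T1 and 12890 in EMT6, and on all 12 libraries with an interaction for the 12006 genes passing in both. P-values were adjusted by Benjamini-Hochberg over all tested genes, with a threshold of 0.05, and a second rule asked for a log2 change of at least 0.5. Replicate spread, as biological coefficient of variation, came to 4.82% (4T1) and 6.73% (EMT6). In libraries of this depth 3 counts correspond to 0.152 to 0.219 CPM. The steps were tested on simulated data in which few genes changed, unlike these data. They recovered 37.3% (4T1), 32.3% (EMT6) and 10.7% (interaction) of log2 changes of 0.3. For log2 changes of 0.5 the shares were 73.8%, 76.1% and 61.9%. Alternatives were DESeq2 1.42.0, limma-voom (limma 3.58.1), DESeq2 size factors, total counts only, no low-count filter, a mean of at least 5 FPKM, a replicate block and each library left out. Leaving out libraries for the related gene lists was added after seeing the data.

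The members and the lists were chosen with earlier results of these data known. Values per library are given for the 6 members with the largest called change in each line and for members called in opposite directions in both lines. They are also given for Wars, Farsa, Farsb and the scaffold proteins. From each related list up to 3 called genes per line with the largest change were picked. For some of these, log2 changes or group means are given. Yars and Lars2 values were added after they were seen. Of the mitochondrial members 1 enters the counts and is not reported here by name.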

Additional observations from a re-analysis of the deposited data

Results flagged for a closer look

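The members below were picked out because the KO change in EMT6 differed from that in 4T1, by the edgeR interaction test with an adjusted p under 0.05. Values are the EMT6 log2 change minus the 4T1 log2 change. The EMT6 change lay below the 4T1 change for 13 of the members listed here. Among cytosolic enzymes the difference was -1.15 for Sars, -1.02 for Aars, -0.70 for Cars, -0.55 for Yars, -0.53 for Nars, -0.42 for Lars, -0.39 for Qars, -0.39 for Tars, -0.26 for Kars and -0.20 for Iars. Among mitochondrial enzymes it was -0.79 for Vars2, -0.75 for Pars2 and -0.36 for Tars2.

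The EMT6 change lay above the 4T1 change for 12 members. It did so by 1.04 for Aimp2 and 0.62 for Eef1e1 among scaffold proteins, and by 0.55 for Dars, 0.42 for Wars, 0.32 for Rars and 0.23 for Farsa among cytosolic enzymes. Among mitochondrial enzymes the difference was 0.77 for Aars2, 0.52 for Yars2, 0.45 for Ears2, 0.43 for Rars2, 0.43 for Fars2 and 0.23 for Iars2. The calls of Wars, Rars, Ears2 and Iars were lost on leaving out several single libraries. The call of Farsa was lost with total counts only (0.17, edgeR adjusted p = 0.0512), and that of Iars2 with total counts only (0.18, edgeR adjusted p = 0.0548) and at a mean of at least 5 FPKM (0.17, edgeR adjusted p = 0.055). Without EMT6 control replicate 3 the difference of Lars was -0.26 and kept its call. For Ears2 those libraries were 4T1 KO replicates 1 to 3, 4T1 control replicates 1 and 3, EMT6 KO replicates 1 and 2 and EMT6 control replicate 2 (0.31 to 0.46, edgeR adjusted p = 0.0607 to 0.132). For Iars they were 4T1 KO replicates 2 and 3, 4T1 control replicates 1 and 3, EMT6 KO replicate 3 and EMT6 control replicate 3 (-0.20 to -0.13, edgeR adjusted p = 0.0675 to 0.138). Without EMT6 control replicate 3, Farsb (0.20), Hars (0.18) and Mars1 (0.20) were called as well.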

How the results depend on the processing

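All counts of called members stayed within 1.5 times under the alternatives, apart from those of the mitochondrial members given here. In 4T1, 1 mitochondrial member was called higher with no low-count filter (3 in the fit reported), and 3 were called lower at a mean of at least 5 FPKM (5), where 7 of them were tested. In EMT6, 0 were called higher at that level (1), and 4 differed between the lines (10), where 6 were tested. On leaving out each library, cytosolic members called higher and lower numbered 4 to 6 and 9 to 9 in 4T1, and 2 to 3 and 10 to 13 in EMT6. Mitochondrial members numbered 1 to 3 and 4 to 5 in 4T1, and 1 to 1 and 3 to 4 in EMT6. Members that differed between the lines numbered 13 to 18 cytosolic and 9 to 10 mitochondrial. Changes near 0 that turned sign and were not called include Aimp1 (0.00625) and Tars (0.00508) in 4T1 with total counts only, and in EMT6 Farsa (-0.00193 without control replicate 3, 0.0475 without KO replicate 3), Yars (-0.07 to 0.11 over all alternatives) and Lars2 (-0.07 to 0.11). Replicate numbers do not pair the libraries, since same-numbered KO and control libraries correlated at -0.023 to 0.009 in 4T1 and -0.130 to -0.007 in EMT6. With a replicate block the cytosolic counts were 6 higher and 9 lower in 4T1 and 3 and 11 in EMT6, the mitochondrial counts were 3 and 5, and 1 and 3, and 12 cytosolic and 9 mitochondrial members differed between the lines. Under it Nars lost its EMT6 call (-0.40, edgeR adjusted p = 0.0511) and Tars its call between the lines (-0.38, edgeR adjusted p = 0.052).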

Other observations

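Genes that make or handle transfer RNA outside the synthetases are given here beside all tested genes, of which 57% were called in 4T1 and 56% in EMT6 (28% higher and 29% lower, and 27.9% and 28.2%). Of 15 subunits and regulators of RNA polymerase III, which transcribes transfer RNA genes, 2 were called higher and 7 lower in 4T1, and 5 and 5 in EMT6. Polr3b, the second-largest subunit, fell by 0.97 ± 0.06 in 4T1. Polr3gl, one of a pair of alternative subunits, rose by 0.74 ± 0.10 in 4T1 and fell by 0.99 ± 0.12 in EMT6. Its alternative Polr3g fell by 0.48 ± 0.07 in 4T1 and rose by 0.77 ± 0.10 in EMT6. Maf1, the repressor of the polymerase, rose by 0.41 ± 0.06 in 4T1 and fell by 0.46 ± 0.07 in EMT6. Of 11 genes of transfer RNA editing, repair and export, 1 was called higher and 5 lower in 4T1, and 3 and 1 in EMT6 (2 lower without control replicate 2). Ptrhd1 fell by 0.94 ± 0.22 in 4T1 and rose by 0.95 ± 0.14 in EMT6. Trnt1, which adds the CCA end that synthetases charge, fell by 0.42 ± 0.06 in 4T1 and by 0.41 ± 0.08 in EMT6. Tarsl2, a threonyl synthetase paralog, rose by 0.55 ± 0.08 in EMT6 and was not called in 4T1.

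Downstream of charging the lists were short, of 7 to 11 tested genes. All tested genes gave 28% higher and 29% lower in 4T1, and 27.9% and 28.2% in EMT6. Lower calls outnumbered higher calls in both lines for the cytosolic elongation factors and for mitochondrial charging and elongation. None of these lists was tested as a set. Here 1 of 7 cytosolic elongation factors was called higher and 4 lower in 4T1, and 1 and 3 in EMT6, the higher call falling to 0 without 4T1 control replicate 2 and without EMT6 control replicate 1, with Eif5a at -0.54 ± 0.04 in 4T1 and Eef1a1 at -0.31 ± 0.07 in EMT6. Of 11 genes of mitochondrial charging and elongation, 0 were called higher and 5 lower in 4T1, and 1 and 5 in EMT6. Without 4T1 KO replicate 3 the lower count was 3, without 4T1 control replicate 3 the higher count was 1, and in EMT6 the higher count was 0 without any 1 of KO replicates 1 and 2 and control replicate 2. Tsfm, the mitochondrial exchange factor of elongation, fell by 0.28 ± 0.08 in 4T1 and by 0.52 ± 0.08 in EMT6, and Gfm2, a ribosome recycling factor, by 0.42 ± 0.08 and 0.37 ± 0.08. Mtif2, the mitochondrial initiation factor, fell by 0.65 ± 0.08 in EMT6. Of 7 genes of the selenocysteine transfer RNA route, 1 was called higher and 2 lower in 4T1, and 3 and 1 in EMT6. Secisbp2, which binds the selenocysteine insertion element, fell by 0.83 ± 0.14 in 4T1 and rose by 0.49 ± 0.08 in EMT6.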
